A study of Mus musculus with 21 samples.

Results

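The 9 genes Il4ra, Retnla, Chil3, Arg1, Mgl2, Clec10a, Il10, Il6 and Nos2, commonly read as markers of alternative or classical macrophage activation, were followed through all 21 RNA-seq libraries of myeloid cells from mouse adipose tissue. They were taken by symbol, 9 of the 54532 genes in the count table, and all 9 passed the filter on low counts. The animals were male C57BL/6 mice kept for 16 weeks on a normal diet (lean) or a high fat diet (obese), with no transgene or added agent named in the labels. Tissue was digested with collagenase and the cells were sorted by flow cytometry, and each group held 3 libraries. MHCII-low macrophages, macrophages positive for MHC class II and negative for CD11c (called CD11c-negative here) and monocyte-derived cells came from both diets. Macrophages positive for MHC class II and CD11c (CD11c-positive) came from obese mice only. The labels do not say whether the libraries of a group came from separate animals, so p-values measure the spread between these samples, which may be technical. RNA of a sorted pool does not tell fewer cells of a type from less RNA per cell, so the 2 cannot be told apart in any difference below.

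Interleukin 4 and interleukin 13, made in adipose tissue by eosinophils and innate lymphoid cells among others, bind receptors that contain the interleukin 4 receptor alpha chain and activate the transcription factor STAT6. In mouse macrophages this induces Retnla, Chil3, Arg1 and the galactose-binding lectin Mgl2, the pattern called alternative activation, which is associated with lean adipose tissue. Bacterial products and interferon gamma induce Nos2 and Il6, the pattern called classical activation. Il10 and Clec10a are counted with alternative activation but have other inducers as well.

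Promoter sequences from RefSeq (GRCm38.p6; 250 bases before to 50 after each start, 300 in all) were at hand for 5 of the 9 genes, namely Retnla, Chil3, Mgl2, Il4ra and Il6. Both strands were searched for TTCNNNNGAA, the spacing that STAT6 is known to prefer, for TTCNNNGAA, the spacing preferred by other STAT factors, and for the NF-kappaB consensus. The sequences of Retnla and Il6 are shown because they carry a match that differs between an alternative and a classical marker, with the matched bases in capitals. The Retnla stretch lies at chr16:48842359-48842550 (plus strand) and the Il6 stretch at chr5:30012864-30013113 (plus strand), both cut before the first annotated exon.
Retnla: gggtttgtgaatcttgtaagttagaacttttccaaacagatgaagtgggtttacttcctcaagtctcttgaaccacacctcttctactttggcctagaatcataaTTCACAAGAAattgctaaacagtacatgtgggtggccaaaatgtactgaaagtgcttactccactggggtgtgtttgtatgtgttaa
Il6: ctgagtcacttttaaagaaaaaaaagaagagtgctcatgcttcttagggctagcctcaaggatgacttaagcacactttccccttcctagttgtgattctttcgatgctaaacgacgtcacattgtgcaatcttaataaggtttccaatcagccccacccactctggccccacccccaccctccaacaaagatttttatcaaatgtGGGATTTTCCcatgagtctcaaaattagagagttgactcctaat
Retnla held 1 match to TTCNNNNGAA, starting 145 bases before the RefSeq start. That motif was present in 6.95% of 32851 promoters of the same length. Il6 held an NF-kappaB match starting 44 bases before its start, and Il4ra held one, on the other strand, within the bases after its start; 4.51% of promoters held this motif. Chil3 held TTCNNNGAA as TTCTTAGAA, found in 8.3% of promoters, and the Mgl2 window held none of the 3 motifs. A match describes letters in a window and not a bound site.

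The galactose lectins Mgl2 and Clec10a are neighbouring genes on chromosome 11 (70130329 to 70137550 and 70156197 to 70170834, GRCm38, GENCODE M21), and their sequence likeness bears on how their counts can be read. Their longest coding models aligned over 910 bases with 90.4% identity, and the longest identical stretch ran to 183 bases. It is printed here with flanking bases, differences between the genes in capitals.
Mgl2: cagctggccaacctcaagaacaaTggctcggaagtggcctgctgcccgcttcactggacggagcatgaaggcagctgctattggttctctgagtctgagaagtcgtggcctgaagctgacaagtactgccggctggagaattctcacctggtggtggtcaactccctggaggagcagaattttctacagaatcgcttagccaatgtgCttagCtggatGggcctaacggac
Clec10a: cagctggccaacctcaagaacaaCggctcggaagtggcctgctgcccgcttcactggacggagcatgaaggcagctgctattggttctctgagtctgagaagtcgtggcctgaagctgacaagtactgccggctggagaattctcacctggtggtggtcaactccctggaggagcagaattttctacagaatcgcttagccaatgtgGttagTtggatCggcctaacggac
Of all 50-base windows in annotated transcripts, 13.1% of those of Mgl2 and 9.02% of those of Clec10a occurred in another gene, mainly in each other. For Chil3 the share was 26.9%, with Chil4 and Gm6522 as partners. Chil4 itself had a mean between 0 and 0.842 CPM (reads scaled to library size) in the 7 groups. How reads matching several places were counted was not given in the sources used here. Counts of Mgl2, Clec10a and Chil3 are therefore less certain than those of the other members. No shared window was found for Arg1, Retnla, Il10, Il4ra, Nos2 or Il6. Il4ra is overlapped on the other strand by Gm44876 along 571 exonic bases (9.51%), and the strand setting of the counting was not given either.

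Library totals ran from 11245851 to 35568948 counts, lowest in replicate 3 of lean monocyte-derived cells. The sort genes followed the labels: H2-Ab1 stood at 233 and 346 CPM in lean and obese MHCII-low macrophages against 1705 CPM or more elsewhere, and Itgax (CD11c) at 586 CPM in CD11c-positive against 85 CPM in obese CD11c-negative macrophages. All 8 macrophage markers exceeded 1 CPM on average in every group. Replicate 2 of lean monocyte-derived cells stood apart, with 6371 CPM of summed macrophage markers against 2509 and 1793 CPM in the others, 14658 CPM of 7 summed monocyte markers against 4447 and 3868 CPM, and 406 CPM of 9 summed dendritic cell markers against 1485 and 1011 CPM. All 8 neutrophil markers were below 1 CPM in each group but lean monocyte-derived cells, where 5 were. Of 5 eosinophil markers, Prg2 and Il5ra were below 1 CPM in all groups, but Ccr3 was not in the obese macrophage groups. The 5 summed to 1.22 ± 0.423 CPM in lean and 5.07 ± 1.26 CPM in obese MHCII-low macrophages (SD, n = 3). In CD11c-negative macrophages the sums were 1.34 ± 0.112 and 4.69 ± 1.44 CPM (SD, n = 3). Obese replicate 2 had the most fibroblast RNA in each population, 1441 to 2189.7 CPM over 8 markers, against 511 to 1034 CPM in the other obese libraries. In obese libraries, equal replicate numbers went together in all 18 pairs across populations (r of deviations from 0.121 to 0.741), so for comparisons among obese libraries, and for the interactions, fits with the number as a block are given where they change a call.

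The comparisons of obese with lean libraries ask which of the markers differ with diet within a sorted population. A gene is called where edgeR's quasi-likelihood test gives a Benjamini-Hochberg adjusted p under 0.05 over all 22935 tested genes. Lower levels in obese mice were called for Arg1, Il6, Il4ra and Mgl2 in MHCII-low macrophages, for the same 4 genes with Retnla and Clec10a in CD11c-negative macrophages, and for Arg1 and Il6 in monocyte-derived cells. No member was called higher in obese mice in any of the 3 populations. The counts were thus 4, 6 and 2 of 9. Over all tested genes, 13.8%, 15.6% and 9.76% were called lower and 30.7%, 32.4% and 17.2% were called in either direction. The median log2 change of the 9 members was -1.28, -0.92 and -0.34, beside -0.07, -0.10 and -0.05 over all tested genes.

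**Figure D1:**
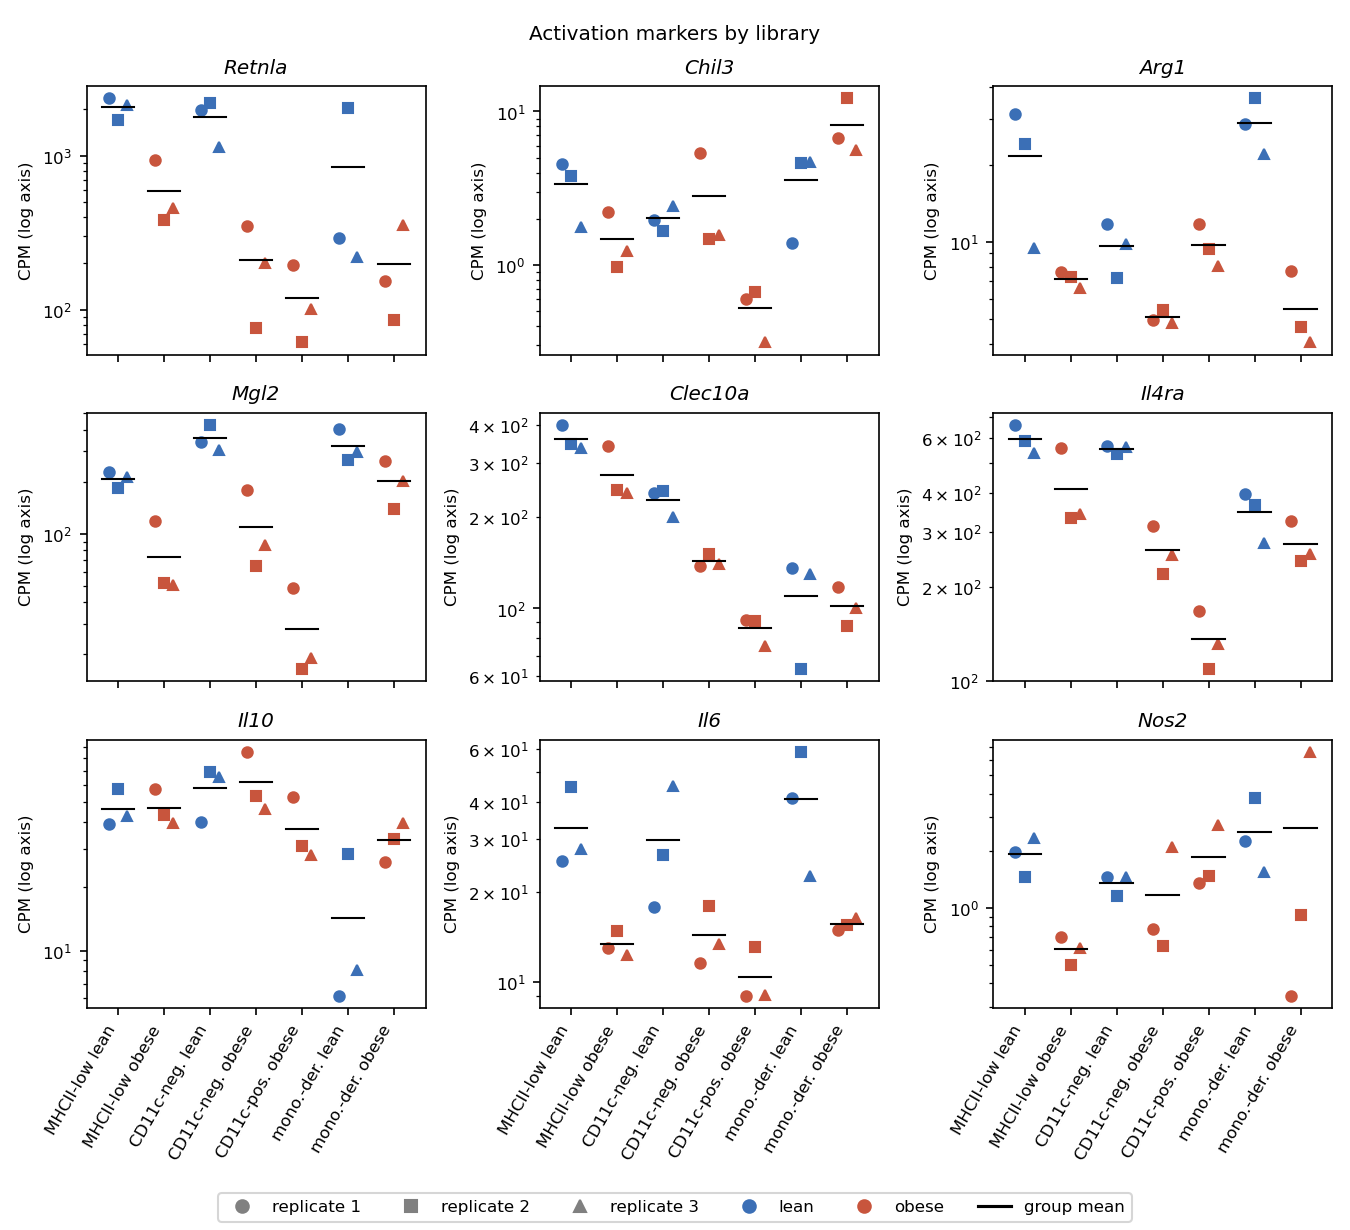
Level of each marker in every library (CPM, log axis); colour gives the diet, symbol shape the replicate number and the bar the mean of 3 libraries. Il6 lay at or below 18 CPM in every obese library, and Retnla reached 1703 CPM or more in 6 libraries, all lean.

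Il4ra encodes the receptor chain shared by interleukins 4 and 13 (chromosome 7, 125552120 to 125579474). In MHCII-low macrophages it stood at 661, 588 and 537 CPM in lean and 558, 334 and 343 CPM in obese replicates 1, 2 and 3. Obese replicate 1 fell within the lean range and the other obese libraries below it. The log2 change was -0.53 (SE 0.20, adjusted p = 0.0436), and it remained called only when obese replicate 1 was left out; without any other library the adjusted p rose to between 0.0682 and 0.217. CD11c-negative macrophages held 566, 534 and 564 CPM in lean and 315, 221 and 253 CPM in obese mice. These groups did not overlap, with a log2 change of -1.08 (SE 0.20, adjusted p = 4.12e-04) that was called in every fit with 1 library left out. Monocyte-derived cells gave 398, 366 and 277 CPM in lean and 326, 242 and 256 CPM in obese mice, overlapping ranges with a log2 difference of -0.34 (SE 0.20, adjusted p = 0.229).

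Retnla, a secreted resistin-like protein (chromosome 16, 48842551 to 48844461), was the most abundant member per length of transcript in all 7 groups. In CD11c-negative macrophages it stood at 1980.2, 2208 and 1137 CPM in lean and 349, 76.5 and 202 CPM in obese mice. Every lean library exceeded every obese one, and the mean was 8.49-fold lower in obese mice (log2 -3.09, SE 0.83, adjusted p = 0.0106). Without obese CD11c-negative replicate 2 or 3 the adjusted p was 0.0741 or 0.0666. In MHCII-low macrophages Retnla stood at 2358, 1703 and 2141 CPM in lean and 933, 384 and 458 CPM in obese mice. The libraries again did not overlap, but the log2 difference of -1.80 (SE 0.79) was not called (adjusted p = 0.094, interval -3.50 to -0.11). It was called by limma (adjusted p = 0.00709) and when only these 6 libraries were fitted (adjusted p = 0.00605), with log2 changes of -2.05 and -1.88. The spread of Retnla in monocyte-derived cells enters the first fit and not the last, and its part in these calls was not tested.

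Among lean monocyte-derived libraries Retnla stood at 293 and 222 CPM in replicates 1 and 3 and at 2026 CPM in replicate 2, the library with the most macrophage and monocyte marker RNA of the 3. Obese monocyte-derived libraries held 155, 86 and 357 CPM. The log2 difference of -2.09 (SE 0.80) was not called (adjusted p = 0.0815), and without lean replicate 2 it was -0.32 (adjusted p = 0.733). The part of macrophage or monocyte RNA in that library's Retnla level was not tested.

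Chil3, a chitinase-like secreted protein also known as Ym1 (chromosome 3, 106147554 to 106167564), was scarce. MHCII-low macrophages held 4.57, 3.83 and 1.77 CPM in lean and 2.22, 0.966 and 1.23 CPM in obese mice, and CD11c-negative macrophages 1.98, 1.66 and 2.43 CPM in lean and 5.36, 1.48 and 1.56 CPM in obese mice. Both pairs overlapped, and neither difference was called (adjusted p = 0.0901 and 0.504). Monocyte-derived cells held 1.39, 4.64 and 4.72 CPM in lean and 6.71, 12.2 and 5.61 CPM in obese mice. All 3 obese libraries exceeded the lean ones here, with a log2 difference of 1.2 (SE 0.51) that was not called (adjusted p = 0.106). The lowest single count of Chil3 was 9 reads, in CD11c-positive replicate 3, with a 95% Poisson interval of 4.12 to 17.1 reads for counting error only.

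Arg1, the arginase that splits arginine into ornithine and urea (chromosome 10, 24915221 to 24927484), was called lower in obese mice in all 3 populations. Monocyte-derived cells held 28.8, 36.3 and 21.9 CPM in lean and 7.66, 4.66 and 4.05 CPM in obese mice. No ranges overlapped, the level was 5.3-fold lower (log2 -2.41, SE 0.33, adjusted p = 1.21e-04), and every fit with 1 library left out kept the call. In MHCII-low macrophages the lean libraries spread from 31.5 and 24 CPM to 9.49 CPM in replicate 3, while the obese ones lay close together at 7.63, 7.29 and 6.58 CPM. The log2 change of -1.59 (SE 0.32, adjusted p = 0.00133) was also called without each library in turn. CD11c-negative macrophages held 11.7, 7.22 and 9.84 CPM in lean and 4.97, 5.41 and 4.84 CPM in obese mice. Their log2 change of -0.92 (SE 0.33, adjusted p = 0.0366) was called without lean CD11c-negative replicate 2 and lost without any other of the 6 libraries (adjusted p from 0.0979 to 0.157).

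Mgl2, a galactose-type lectin of macrophages and dermal dendritic cells, stood at 227, 183 and 214 CPM in lean and 119, 51.5 and 50.4 CPM in obese MHCII-low macrophages. The groups did not overlap (log2 -1.50, SE 0.44, adjusted p = 0.0181), and the call was lost without lean replicate 3 (adjusted p = 0.059) or obese replicate 2 or 3 (0.0975 and 0.0954). CD11c-negative macrophages held 342, 426 and 304 CPM in lean and 179, 64.9 and 85.9 CPM in obese mice, again apart (log2 -1.70, SE 0.44, adjusted p = 0.00812). Without obese CD11c-negative replicate 2 or 3 the adjusted p was 0.0543 or 0.0547. Monocyte-derived cells held 407, 266 and 299 CPM in lean and 263, 140.0 and 201 CPM in obese mice. Although no obese library reached the lean range, the log2 difference of -0.69 (SE 0.43) was not called (adjusted p = 0.277).

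Clec10a, also called Mgl1, is the other lectin of the pair and is used as a macrophage and dendritic cell marker. CD11c-negative macrophages held 239, 244 and 200.1 CPM in lean and 138, 151 and 139.9 CPM in obese mice, without overlap (log2 -0.67, SE 0.20, adjusted p = 0.0165), and the call held without each library in turn. In MHCII-low macrophages the values were 401, 347 and 336 CPM in lean and 342, 245 and 239 CPM in obese mice, overlapping through obese replicate 1. That difference was not called (log2 -0.39, SE 0.20, adjusted p = 0.147), but was without obese MHCII-low replicate 1 (log2 -0.56, adjusted p = 0.0455). Monocyte-derived cells held 136, 63.1 and 129.6 CPM in lean and 118, 87.8 and 100 CPM in obese mice, a log2 difference of -0.10 with an interval from -0.54 to 0.34. Whether Clec10a and Mgl2 respond differently to diet was not tested.

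Il10, an anti-inflammatory cytokine (chromosome 1, 131019845 to 131024974), had overlapping ranges in both macrophage populations. MHCII-low macrophages held 39.1, 57.3 and 42.8 CPM in lean and 57.3, 43.3 and 39.9 CPM in obese mice, and CD11c-negative macrophages 40, 68.6 and 65.3 CPM in lean and 85.5, 53 and 46.4 CPM in obese mice. The log2 differences were 0.01 and 0.09, with intervals from -0.89 to 0.92 and from -0.81 to 0.99. Lean monocyte-derived cells held 6.12, 28.3 and 8.15 CPM and obese ones 26.1, 33.5 and 39.8 CPM. Lean replicate 2 alone reached the obese range, and the log2 difference of 1.2 (SE 0.44) was not called (adjusted p = 0.0705). Without that library it was 2.27 (SE 0.38, adjusted p = 5.58e-04).

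**Figure D2:**
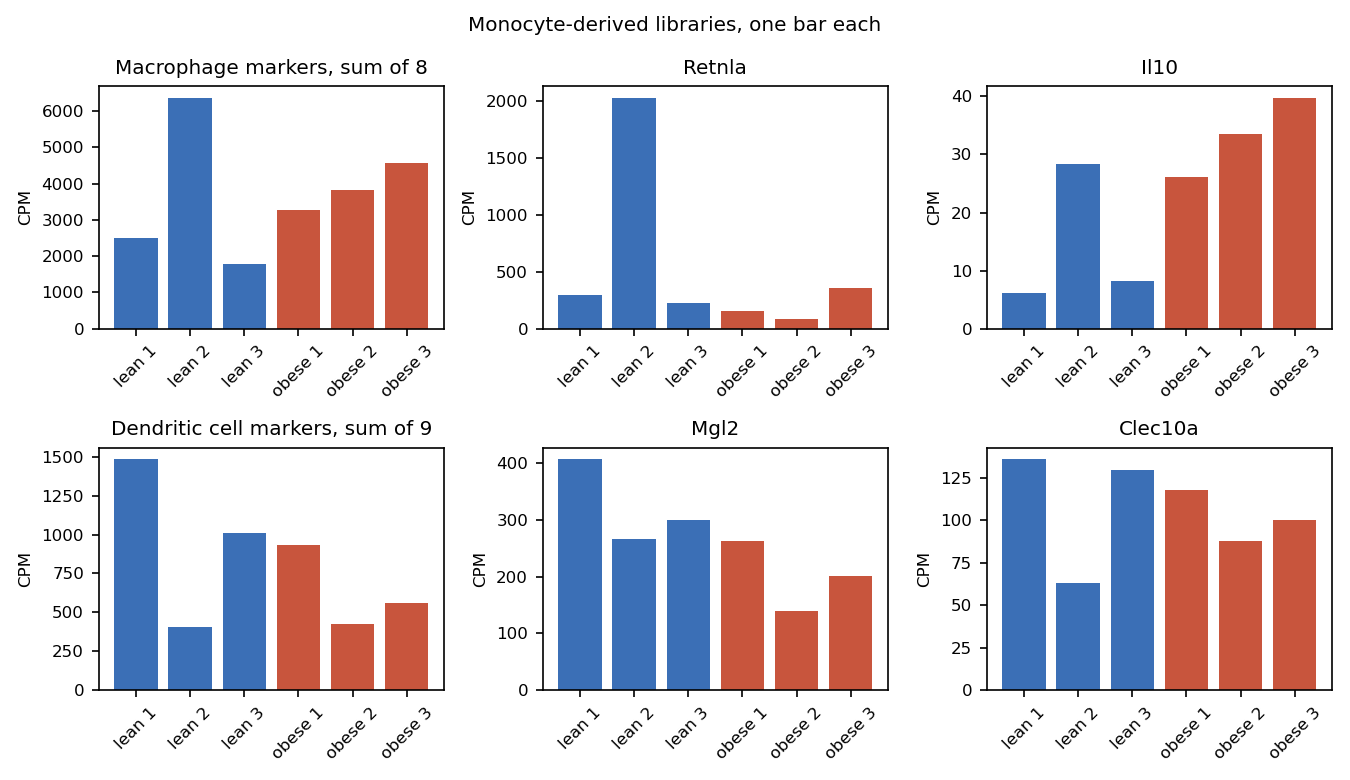
Summed macrophage and dendritic cell markers and 4 members in the 6 monocyte-derived libraries (CPM, linear axis from 0, 1 bar a library). Lean replicate 2 had the highest macrophage sum (6371 CPM) and Retnla level (2026 CPM) and the lowest dendritic cell sum (406 CPM) and Clec10a level (63.1 CPM).

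Across the 6 monocyte-derived libraries Clec10a had the same order as the summed dendritic cell markers, and Mgl2 had it only within each diet. Lean replicate 2, with the lowest sum of the 6, held 266 CPM of Mgl2, against 263 CPM or less in the obese libraries. Summed dendritic cell markers stood at 1485, 406 and 1011 CPM in lean and 930.1, 427 and 561 CPM in obese replicates 1, 2 and 3, and replicate 1 was the highest and replicate 2 the lowest of its diet for these markers, for Mgl2 and for Clec10a. In MHCII-low cells the same sum came to 129.9 ± 10.9 CPM on the normal and 60 ± 13.7 CPM on the high fat diet, and in CD11c-negative cells to 110.4 ± 7.64 and 35.8 ± 1.35 CPM (SD, n = 3). Of these 9 markers Flt3 was below 1 CPM in these 4 groups, Clec9a in both MHCII-low groups and Ccr7 in the obese MHCII-low group. The other markers of the list averaged 1 CPM or more in each of the 4 groups. Summed adipocyte markers also differed, at 40.5 ± 3.39 against 8.76 ± 1.67 CPM and 52.5 ± 5.81 against 11.7 ± 0.976 CPM in the same order (SD, n = 3). Other lists moved with diet too. In MHCII-low cells 7 of 10 lymphoid (T, NK and innate lymphoid cell), 4 of 6 mesothelial, 4 of 7 monocyte and 4 of 6 peritoneal macrophage markers were called lower in obese mice, with medians of -1.91, -1.87, -1.54 and -0.91. The summed lymphoid markers went the other way, at 27.2 ± 2.58 CPM on the normal and 48 ± 20.3 CPM on the high fat diet (SD, n = 3), with 1 of the 10 called higher. In the obese group 9 of the 10 were below 1 CPM, all but Il7r, so that sum was mostly Il7r and not lymphoid markers as a whole. In CD11c-negative cells the counts were 4, 2, 2 and 2 of these lists. B cell markers were lower for 3 of 5 in MHCII-low and 1 of 5 in CD11c-negative cells. Of 8 fibroblast markers 3 were called higher in each population, and 1 lower in MHCII-low cells. Over all tested genes 13.8% and 15.6% were called lower in these 2 populations, and 30.7% and 32.4% in either direction. Of 8 macrophage markers 3 were called higher in each population, with medians of 0.36 and 0.43. Of 3 tested eosinophil markers 2 were called higher in each, with medians of 1.57 and 1.43. The part of these cell types in the lower levels of the members was not tested.

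Of the classical markers, Il6 (chromosome 5, 30013114 to 30019981), a cytokine that also has metabolic roles, was called lower in obese mice in all 3 populations. Lean MHCII-low macrophages held 25.3, 44.6 and 27.7 CPM and obese ones 13, 14.8 and 12.3 CPM, without overlap (log2 -1.28, SE 0.33, adjusted p = 0.00729). The adjusted p was 0.0618 without lean replicate 2 and 0.054 without obese replicate 3. Lean monocyte-derived cells held 41.2, 58.5 and 22.5 CPM and obese ones 14.9, 15.5 and 16.3 CPM, also apart (log2 -1.40, SE 0.33, adjusted p = 0.00965). That call was lost without obese monocyte-derived replicate 1 or 3 (adjusted p = 0.0593 and 0.0586). CD11c-negative macrophages held 17.8, 26.6 and 44.9 CPM in lean and 11.6, 18 and 13.4 CPM in obese mice, where obese replicate 2 just exceeded lean replicate 1. The log2 change was -1.05 (SE 0.32, adjusted p = 0.0196), and it was not called without lean replicate 3 (0.191) or obese replicate 1 or 3 (0.109 and 0.0981).

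Nos2, the inducible nitric oxide synthase (chromosome 11, 78920787 to 78960254), was the least abundant member per length in 6 of 7 groups, the exception being CD11c-positive macrophages, where Chil3 was lower. It stood at 1.96, 1.46 and 2.33 CPM in lean and 0.701, 0.499 and 0.613 CPM in obese MHCII-low macrophages. These ranges did not overlap and the difference was not called (log2 -1.66, SE 0.73, adjusted p = 0.0907). CD11c-negative macrophages held 1.46, 1.16 and 1.46 CPM in lean and 0.77, 0.627 and 2.09 CPM in obese mice. Monocyte-derived cells held 2.25, 3.77 and 1.54 CPM in lean and 0.343, 0.923 and 6.62 CPM in obese mice, so that 1 obese library, replicate 3 with 157 reads, was the highest of all 21 and another, replicate 1 with 9 reads, the lowest. The log2 difference there was 0.03 (SE 0.68, adjusted p = 0.978) and -1.90 (adjusted p = 0.0387) without obese replicate 3.

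Levels this low were read beside 1409 olfactory and vomeronasal receptor genes, which myeloid cells are not known to express. Per kilobase of exon those genes averaged 0.0304 and 0.00742 CPM in lean and obese MHCII-low macrophages and 0.122 and 0.0201 CPM in lean and obese monocyte-derived cells. Nos2 stood at 0.434, 0.137, 0.571 and 0.596 CPM per kilobase in these groups, 14.3, 18.5, 4.68 and 29.7 times the receptor genes. Receptor gene reads were thus higher in lean than in obese libraries in the same comparisons, and their part in the Nos2 and Chil3 levels was not tested. Summed, the receptor genes came to 159 ± 28.8 CPM in lean and 38.8 ± 9.34 CPM in obese MHCII-low macrophages. In CD11c-negative macrophages the sums were 100.5 ± 34.7 and 28.2 ± 2.83 CPM (SD, n = 3). The part of such reads in the lower dendritic cell, adipocyte and other marker levels given above was not tested either.

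**Figure D3:**
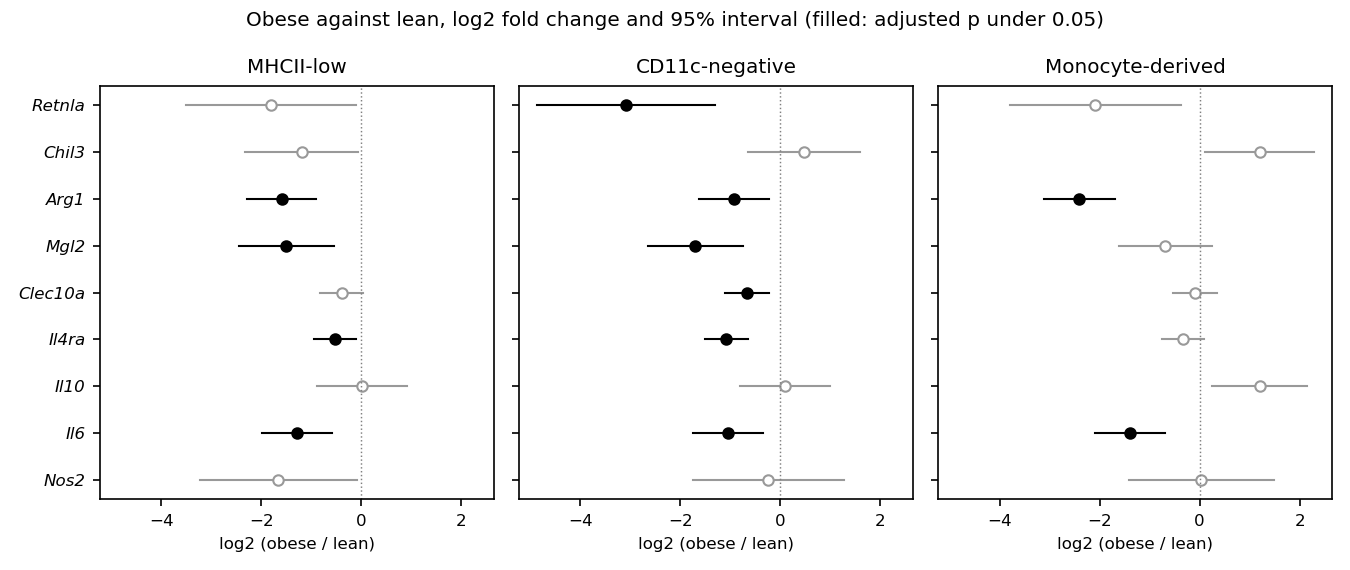
Log2 change between obese and lean mice for each member in 3 populations, with its 95% interval from the edgeR fit; filled points passed an adjusted p of 0.05. All filled points lie below 0, and the highest unfilled ones are Chil3 and Il10 in monocyte-derived cells.

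Whether the diet difference itself differed between populations was tested with interaction terms, which share the groups they compare. By edgeR's quasi-likelihood test 0 of 9 members were called in each of the 3 interactions, where 0%, 4.33% and 6.36% of all genes were called for CD11c-negative against MHCII-low, monocyte-derived against MHCII-low and monocyte-derived against CD11c-negative cells. At an unadjusted p under 0.05 the counts were 1, 1 and 2, and DESeq2 called 0, 1 and 1. The Arg1 log2 change in monocyte-derived cells minus that in CD11c-negative cells was -1.49 (SE 0.46, adjusted p = 0.0586). DESeq2 called it (adjusted p = 0.0211), as did the fit without lean monocyte-derived replicate 3 (0.0441) or obese replicate 1 (0.044). The Chil3 difference between monocyte-derived and MHCII-low cells was 2.39 (SE 0.73, adjusted p = 0.0702), and it was called without lean monocyte-derived replicate 2 (0.0435), without obese MHCII-low replicate 1 (0.0342) and by DESeq2 (0.0242). For Il10 the 2 interactions with monocyte-derived cells were 1.18 and 1.11, uncalled, and became 2.26 (adjusted p = 0.0067) and 2.16 (adjusted p = 0.00706) without lean replicate 2. Il4ra's difference between monocyte-derived and CD11c-negative cells was 0.74 (adjusted p = 0.118), and 1.05 (adjusted p = 0.039) without obese CD11c-negative replicate 1. With the description number as a block in both diets, 3 members were called for monocyte-derived against CD11c-negative cells: Arg1 (-1.58, adjusted p = 0.026), Il4ra (0.76, adjusted p = 0.00491) and Mgl2 (1.13, adjusted p = 0.00682; 1.01 and 0.36 without the block). Mgl2 was then also called for monocyte-derived against MHCII-low cells (0.91, adjusted p = 0.0474; 0.81 and 0.506 without the block). These fits also use the lean numbers, which did not meet the rule for pairs.

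The obese populations were compared with each other to see how the markers differ across the sort gates. These comparisons share libraries, so each is given on its own. CD11c-positive macrophages had the lowest group mean of Retnla, Chil3, Mgl2, Clec10a, Il4ra and Il6. Against MHCII-low macrophages 3 members were called, all lower (14.3% of all genes were called in either direction), and against CD11c-negative macrophages also 3, all lower (3.49% called).

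Il4ra in CD11c-positive macrophages was 168, 109 and 131 CPM, below every library of the other groups. It was lower than in MHCII-low macrophages by a log2 change of -1.60 (SE 0.20, adjusted p = 1.57e-05), in every fit with 1 library left out. Against CD11c-negative macrophages the change was -0.95 (SE 0.20, adjusted p = 0.0108), and the call was lost without CD11c-negative replicate 1 or 3 (0.129 and 0.0524) or CD11c-positive replicate 2 or 3 (0.137 and 0.0847). Mgl2 stood at 48.4, 16.4 and 19 CPM and was lower than in CD11c-negative macrophages by -1.98 (SE 0.45, adjusted p = 0.0231) and than in MHCII-low macrophages by -1.40 (SE 0.44, adjusted p = 0.0444). The former was lost without CD11c-negative replicate 1 or 3 or CD11c-positive replicate 2 or 3 (0.0645 to 0.193), and the latter remained called only without CD11c-positive replicate 1 (0.0529 to 0.378 without each other library). Without CD11c-positive replicate 1, the highest of its group, these differences were -2.61 and -2.01.

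Clec10a stood at 91.3, 91.2 and 75.5 CPM in CD11c-positive macrophages, all below the MHCII-low libraries (log2 -1.68, SE 0.21, adjusted p = 1.67e-05). Against CD11c-negative macrophages its difference of -0.73 was just not called (adjusted p = 0.0513), and it was called with the replicate number as a block (log2 -0.74, adjusted p = 0.024). Chil3, at 0.599, 0.67 and 0.314 CPM, was lower than in CD11c-negative macrophages (log2 -2.39, SE 0.58, adjusted p = 0.0272). This rests on low counts and on CD11c-negative replicate 1 at 5.36 CPM: without it the log2 change was -1.48 (adjusted p = 0.276), and without CD11c-positive replicate 1, 2 or 3 the adjusted p was 0.0819, 0.129 or 0.167. Retnla, at 196, 61.6 and 102 CPM, lay below all MHCII-low libraries; the difference of -2.30 (SE 0.80) was not called (adjusted p = 0.068), and with the block it was -2.38 (adjusted p = 0.0205).

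Arg1 had another order of levels than the lectins and Retnla. CD11c-positive macrophages held 11.7, 9.35 and 8.03 CPM, above every library of obese MHCII-low, CD11c-negative and monocyte-derived cells. The log2 differences were 0.44 against MHCII-low cells (adjusted p = 0.394), 0.94 (SE 0.32) against CD11c-negative cells (adjusted p = 0.116), and -0.83 (SE 0.32) for monocyte-derived against CD11c-positive cells (adjusted p = 0.0503). None was called, although the last was with the block (log2 -0.84, adjusted p = 0.0331) and without obese monocyte-derived replicate 1 (log2 -1.20, adjusted p = 0.0197).

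Between the other obese macrophages, 1 of 9 members was called (3.05% of all genes). Clec10a was lower in CD11c-negative than in MHCII-low macrophages, 138, 151 and 139.9 against 342, 245 and 239 CPM (log2 -0.95, SE 0.20, adjusted p = 0.0111). Without MHCII-low replicate 1 its change was -0.77 (adjusted p = 0.0633). Il4ra gave -0.65 (SE 0.20, adjusted p = 0.0845) and, with the block, -0.62 (adjusted p = 0.00213), so the count with the block was 2.

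**Figure D4:**
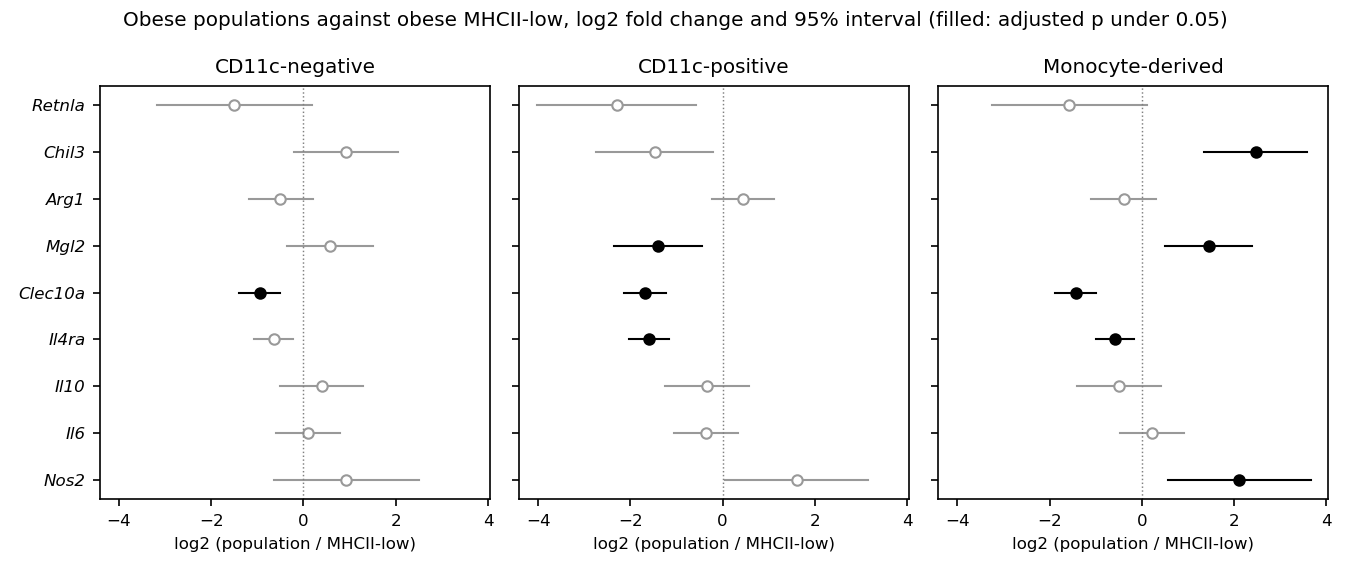
Log2 difference of 3 obese populations from obese MHCII-low macrophages for each member, with its 95% interval from the edgeR fit; filled points passed an adjusted p of 0.05, and all 3 panels share the same MHCII-low libraries. Clec10a is filled below 0 in all 3 panels, Il4ra in CD11c-positive and monocyte-derived cells, and Mgl2 in CD11c-positive cells. Chil3, Mgl2 and Nos2 are filled above 0 in monocyte-derived cells, Nos2 through 1 library.

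Obese monocyte-derived cells differed from MHCII-low macrophages in 5 of 9 members (32.8% of all genes were called). Chil3 at 6.71, 12.2 and 5.61 CPM was higher (log2 2.47, SE 0.52, adjusted p = 0.00112), and Clec10a at 118, 87.8 and 100 CPM was lower (log2 -1.43, SE 0.21, adjusted p = 1.64e-05), both in every fit with 1 library left out. Mgl2 was higher (log2 1.45, SE 0.44, adjusted p = 0.0174), a call lost without MHCII-low replicate 2 or 3 (0.0857 and 0.0837) or monocyte-derived replicate 1 (0.0852). The 2 lectins thus went in opposite directions between these groups. Il4ra was lower (log2 -0.58, SE 0.20, adjusted p = 0.026), but not called without MHCII-low replicate 1 (0.292) or monocyte-derived replicate 2 or 3 (0.145 and 0.112). Nos2 was called higher (log2 2.11, SE 0.72, adjusted p = 0.0309) on the strength of monocyte-derived replicate 3; without it the log2 difference was 0.04 (adjusted p = 0.984), and without any 1 of the MHCII-low libraries the adjusted p was 0.0838 to 0.116.

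Against CD11c-positive macrophages 3 of 9 members were higher in obese monocyte-derived cells (38.7% of all genes were called). Chil3 was 15.3-fold higher (log2 3.94, SE 0.59, adjusted p = 3.41e-05), Mgl2 7.21-fold (log2 2.85, SE 0.46, adjusted p = 1.48e-04) and Il4ra 2.02-fold (log2 1.01, SE 0.20, adjusted p = 4.01e-04), and each was called without every single library in turn. Mgl2 gave 3.49 without CD11c-positive replicate 1. Against CD11c-negative macrophages 1 member was called (23.8% of all genes): Chil3 was higher by 1.54 (SE 0.50, adjusted p = 0.0312), which was lost without CD11c-negative replicate 2 or 3 (0.156 and 0.149) or monocyte-derived replicate 1 or 2 (0.0578 and 0.141). With 1 library left out the difference ranged from 1.16 to 2.42, the highest without CD11c-negative replicate 1. Mgl2 gave 0.87 (adjusted p = 0.159), 0.98 with the block (adjusted p = 3.65e-04) and 1.43 without CD11c-negative replicate 1 (adjusted p = 0.0375). With the block 2 members were called in this comparison. Against each obese macrophage population, 6 or 7 of 8 macrophage markers were called lower in obese monocyte-derived cells, and 8 of 9 dendritic cell markers higher. Against MHCII-low, CD11c-negative and CD11c-positive cells in turn, 7, 6 and 7 of 7 monocyte markers were also higher. So were 4, 4 and 4 of 5 B cell and 5, 4 and 5 of 10 lymphoid markers, with 1 lymphoid marker lower against CD11c-positive cells. Over all tested genes 32.8%, 23.8% and 38.7% were called in either direction. The part of this cell makeup in the member differences was not tested.

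In lean mice the 2 macrophage populations did not differ in any member by edgeR's test: 0 of 9 were called (1.3% of all genes), 2 had an unadjusted p under 0.05, and DESeq2 called 2, Arg1 and Clec10a. Mgl2 stood at 208 ± 22.6 CPM in MHCII-low and 357 ± 62.1 CPM in CD11c-negative cells, and Clec10a at 361 ± 35 and 228 ± 24.1 CPM (SD, n = 3). Neither pair of ranges overlapped, with log2 differences of 0.78 (adjusted p = 0.588) and -0.67 (adjusted p = 0.146). Arg1 gave -1.17 (adjusted p = 0.0809), and -1.52 (adjusted p = 0.00321) without lean MHCII-low replicate 3.

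Lean monocyte-derived cells had less Il10, Il4ra and Clec10a than lean MHCII-low macrophages, 3 of 9 members (46% of all genes were called). Clec10a was lower by -1.72 (SE 0.21, adjusted p = 1.06e-06), Il10 by -1.68 (SE 0.44, adjusted p = 0.0054) and Il4ra by -0.78 (SE 0.20, adjusted p = 0.00284). Against lean CD11c-negative macrophages the same 3 were lower and Arg1 was higher, 4 of 9 (43.7% called). Arg1 was 3.03-fold higher (log2 1.60, SE 0.32, adjusted p = 5.27e-04), and Il10 4.01-fold lower (log2 -2.0, SE 0.45, adjusted p = 0.00183). All 7 of these results were called without each library in turn. Il10 depended most on lean monocyte-derived replicate 2: without it the 2 differences were -2.75 and -3.06. Retnla was not called in either comparison (adjusted p = 0.191 and 0.281), and without that replicate it was lower by -3.04 (adjusted p = 0.0055) and -2.80 (adjusted p = 0.00803). Il6 gave 0.46 against CD11c-negative cells (adjusted p = 0.255), and 0.88 (adjusted p = 0.0413) without lean CD11c-negative replicate 3. In both comparisons 6 of 8 macrophage markers were called lower and 1 higher in lean monocyte-derived cells, and 7 of 9 dendritic cell markers higher. Against MHCII-low cells 4 of 7 monocyte markers were higher and 1 lower, and 3 of 5 B cell and 2 of 10 lymphoid markers were higher. Against CD11c-negative cells 3 of 7 monocyte, 2 of 5 B cell and 4 of 10 lymphoid markers were higher. These stand beside the 46% and 43.7% of all genes called in either direction. The part of this cell makeup in the member differences was not tested.

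Ordered by mean, most neighbouring groups overlapped. Retnla ran from 2068 ± 334 CPM in lean MHCII-low to 119.8 ± 68.9 CPM in CD11c-positive macrophages, a ratio of 17.3, and of its 6 neighbouring pairs only obese MHCII-low and obese CD11c-negative cells (592 and 209 CPM) had separate ranges. Mgl2 spanned 12.8-fold, Il4ra 4.38-fold and Clec10a 4.2-fold between highest and lowest group. Arg1 spanned 5.71-fold, Il10 4.34-fold and Nos2 4.35-fold, and none of their neighbouring groups were separate. Il6 separated once, between lean CD11c-negative (29.8 ± 13.8 CPM) and obese monocyte-derived cells (15.5 ± 0.706 CPM; SD, n = 3).

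Per kilobase of exon, Retnla reached 3452 CPM in lean MHCII-low macrophages, against 125 for Clec10a, 99.2 for Mgl2 and Il4ra, 35.4 for Il10, 13.4 for Il6, 9.72 for Arg1, 2.08 for Chil3 and 0.434 for Nos2. In CD11c-positive macrophages Retnla stood at 199.9 CPM per kilobase and Clec10a, Il10, Il4ra and Mgl2 between 13.3 and 29.7. The other 4 members lay at or below 4.36 in that population.

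Within obese groups the members also varied with the replicate number. Replicate 1 was the highest of its group for Mgl2 and Il4ra in 4 of 4 obese groups, for Arg1, Retnla, Clec10a and Il10 in 3 of 4, and for Il6 in 0 of 4. Summed mast cell markers, in contrast, were lowest in replicate 1 of each obese group, at 5.26 to 10.6 CPM against 31.4 to 70.8 CPM in replicates 2 and 3. The link between these values was not tested.

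Across the 21 libraries, which share diets, gates and replicate numbers, levels (log2 CPM) of Il4ra went with those of Retnla (Pearson r 0.87), Clec10a (0.78) and Mgl2 (0.76), while the 2 lectins had an r of 0.29 with each other. Arg1 went with Il6 (0.66) more than with Retnla (0.45), and with Il10 its r was -0.49. Il6 went as much with Mgl2 (0.67), Il4ra (0.61) and Retnla (0.60), but less with Chil3 and Nos2 (both 0.34), Clec10a (0.22) and Il10 (-0.21). Among 8696 named genes, the pattern most like Retnla was that of Ccl24, a chemokine for eosinophils (r 0.952), which stood at 158 ± 47.6 CPM in lean MHCII-low and 3.56 ± 1.67 CPM in CD11c-positive macrophages (SD, n = 3). Next were Slc20a1 (0.945), a phosphate transporter, and Ccr1 (0.944), a chemokine receptor. Il4ra was most like Arid5a (0.983), an RNA-binding protein, Mgl2 most like Hivep2 (0.972), and Clec10a most like Fchsd2 and C4a (both 0.959), followed by the lectin Cd209b (0.955). Il6 was most like Map3k6 (0.882) and then Il1a (0.849), Il10 most like Eaf1 (0.957), Arg1 most like Ivd (0.825) and Chil3 most like Emilin2 (0.835). These are descriptions over libraries that are not independent, and the ranks depended on the libraries and the measure. Without the 3 lean monocyte-derived libraries 0 of the 3 leading genes of Retnla, Arg1 and Il6 stayed among the first 3, although Ccl24 still had an r of 0.958 with Retnla. By Spearman's rho 0 of the 3 stayed for Mgl2, where Hivep2 had a rho of 0.943. C4a and Cd209b for Clec10a stayed under both.

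The wider pathways were read from lists of genes for the 3 diet comparisons, given as MHCII-low, CD11c-negative and monocyte-derived cells in turn. Only up to 4 called genes of smallest p were named per comparison, so a population not named for a gene may also have changed. Of 21 tested genes of the response to interleukins 4 and 13, 3, 4 and 4 were called higher and 6, 7 and 7 lower in obese mice, with medians of -0.30, -0.44 and -0.05. Over all tested genes 30.7%, 32.4% and 17.2% were called in either direction and 13.8%, 15.6% and 9.76% lower, the background for each list below as well. Irf4, a transcription factor needed for alternative activation, fell from 261 ± 42 to 105 ± 43.8 CPM in MHCII-low and from 228 ± 31.4 to 54 ± 14.5 CPM in CD11c-negative macrophages (SD, n = 3), log2 changes of -1.31 (SE 0.25) and -2.08 (SE 0.26). Cish, a feedback inhibitor of cytokine receptors, fell by 1.21 in MHCII-low and by 1.37 in monocyte-derived cells on the log2 scale. Pparg, a lipid-sensing nuclear receptor of the same list, went the other way and rose in all 3 populations, by log2 1.65, 1.15 and 1.12. The elastase Mmp12 rose by 4.83 (SE 0.48) and 3.93 (SE 0.46) in the macrophage populations.

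Of 13 tested genes of the signalling path itself, 3, 2 and 1 were higher and 4, 4 and 3 lower, beside 30.7%, 32.4% and 17.2% of all genes called in either direction. Stat6, the main transducer, was higher in obese CD11c-negative macrophages (188 ± 8.73 against 137 ± 9.03 CPM, SD, n = 3, log2 0.45, SE 0.11). Il4ra, Jak1 (log2 -0.61) and the adaptor Irs2 (log2 -1.03) were lower there. Group means in MHCII-low macrophages moved the same way, with Stat6 going from 138 ± 15.1 to 182 ± 12.5 CPM (SD, n = 3). Jak1 went from 670.1 ± 76.3 to 483 ± 47.6 CPM and Irs2 from 581 ± 12.2 to 383 ± 117 CPM. Monocyte-derived cells changed less, with Stat6 at 169 ± 19.2 and 179 ± 18.9, Jak1 at 413 ± 88 and 397 ± 7.37, and Irs2 at 234 ± 54 and 245 ± 1.51 CPM. Ptpn6, a phosphatase that restrains cytokine signals, rose by 1.07, 1.17 and 0.54. The cytokine Il13 was called lower in MHCII-low and monocyte-derived cells, at 0.643 ± 0.313 against 0.135 ± 0.0537 CPM and 0.662 ± 0.217 against 0.124 ± 0.0827 CPM (SD, n = 3), levels at which reads on receptor genes were also higher in lean mice. Il13 in CD11c-negative macrophages was at 0.619 ± 0.18 CPM on the normal and 0.178 ± 0.0456 CPM on the high fat diet (SD, n = 3).

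Among 24 tested genes of classical activation, 1, 1 and 2 were higher and 3, 4 and 2 lower, with medians of -0.60, -0.47 and -0.35. The numbers lower were near the background of 13.8%, 15.6% and 9.76%, so they say nothing of the list as a whole, and the genes below stand for themselves. Il1a fell in all 3 populations, from 42.7 ± 18.8 to 10.8 ± 5.44, from 47.8 ± 17.6 to 7.19 ± 3.03 and from 46.4 ± 22.2 to 9.45 ± 2.4 CPM (SD, n = 3; log2 -1.99, -2.73 and -2.30). Cd38, an enzyme that consumes NAD, fell by 1.22 and by 2.41 in the macrophage populations and rose by 0.93 in monocyte-derived cells. The costimulatory gene Cd86 fell by 0.72 and by 1.22 in the macrophages. Irf5, a transcription factor of classical activation, rose in MHCII-low macrophages by 0.45 (SE 0.13).

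Of 19 genes of arginine, nitric oxide and polyamine metabolism, 5, 7 and 2 were higher and 3, 2 and 2 lower, beside 13.8%, 15.6% and 9.76% of all genes lower and 30.7%, 32.4% and 17.2% in either direction. Odc1, which turns the ornithine made by arginase into putrescine, rose from 206 ± 32.9 to 452 ± 59.2 CPM in MHCII-low and from 228 ± 4.34 to 602 ± 63 CPM in CD11c-negative macrophages (SD, n = 3; log2 1.13 and 1.4), while Arg1 was lower in both. Sms, the spermine synthase, rose with it, by 0.66 and 0.60. Gch1, of the cofactor synthesis for nitric oxide synthases, fell by 0.53 in MHCII-low macrophages.

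Of 10 genes of the interleukin 10 path 3, 2 and 1 were higher and 3, 4 and 0 lower, and of 13 genes of the interleukin 6 path 1, 1 and 0 were higher and 4, 6 and 3 lower, beside the same 30.7%, 32.4% and 17.2% of all genes in either direction. The lists share Stat3, the transducer of both receptors, which fell from 777 ± 13 to 497 ± 78.4 CPM in MHCII-low and from 818 ± 32.3 to 483 ± 52.5 CPM in CD11c-negative macrophages (SD, n = 3; log2 -0.65 and -0.76). Lif, a cytokine of the interleukin 6 family, fell by 1.15, 1.43 and 1.13. The relatives of the members were scarce: of 3 tested resistin-like and chitinase-like genes 0 were higher and 2, 1 and 0 lower, with Retn at 0.714 CPM or less in the macrophage populations. Of the 2 tested galactose lectin relatives, Asgr2 was lower in all 3 populations (log2 -1.40, -2.41 and -0.96), and Asgr1 in both macrophage populations (log2 -1.86 and -3.35). Asgr1 was scarce, at 5.05 ± 4.16 CPM in lean and 1.39 ± 1.12 CPM in obese MHCII-low cells, where the ranges overlapped. In CD11c-negative cells it stood at 2.44 ± 1.29 and 0.236 ± 0.0351 CPM (SD, n = 3).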

How the data were processed

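Bulk RNA-seq libraries (21) were read from 1 table of read counts per gene as deposited. Per the submitters' processing notes, featureCounts (Subread 1.4.6-p5) and the aligner STAR (2.6.0a) were used on GRCm38, with bcl2fastq and Trim Galore (0.4.5) also named; strand and multi-mapping settings were not given in the sources used here. All count columns were mapped to a library by its labels (0 left unmapped). Gene symbols, positions and exonic lengths came from GENCODE M21 by Ensembl ID (53229 of 54532 with version, 54409 without).

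Genes were filtered with filterByExpr (22935 kept), scaled by TMM and fitted in edgeR 4.0.16 (R 4.3.3) with 1 mean per group over all 21 libraries (14 residual degrees of freedom). Contrasts were tested 2-sided by the robust quasi-likelihood F test with Benjamini-Hochberg adjustment over all tested genes, called under 0.05; the SE is the log2 change over the root of F. CPM were TMM-scaled counts over the tested genes' total. The pipeline was tested on simulated counts with known changes. Members and gene lists were chosen with earlier results of these data known. The 9 members are given whatever their call; from each list up to 4 called genes of smallest p per comparison could be named; patterns were compared for members reaching a group mean of 5 CPM, against tested genes with an official symbol reaching 10 CPM, taking the 3 of highest Pearson r.

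Alternatives were DESeq2 1.42.0 (Wald test, and its size factors in edgeR), limma 3.58.1 (voom with quality weights), no filter on low counts, a fit of the compared libraries only, each library left out in turn, a replicate block, and, added after seeing the data, all obese libraries numbered 1 left out. The equal numbers of obese libraries were taken as pairs because all 18 correlations of their deviations (10447 genes) exceeded 0.1. Totals of 11245851 to 35568948 counts set the precision, and Poisson intervals cover counting error only.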

Additional observations from a re-analysis of the deposited data

How the results depend on the processing

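No called member changed direction under any alternative. Of 35 called member results, 18 were called without each library in turn. DESeq2 and its size factors kept 35, limma with quality weights 34 and a fit of the compared libraries only 29. Leaving out the obese libraries numbered 1 kept 22 of the 28 calls that this fit could test. Only the larger changes in counts of called members follow. Smaller ones are left out, and the causes were not tested. For MHCII-low macrophages between diets (4 called) compared libraries only gave 8, limma 7 and no filter 7. For monocyte-derived cells (2) DESeq2 gave 4, compared libraries only 1 and no filter 6. The interaction of CD11c-negative with MHCII-low cells (0) gave 2 without a filter. That of monocyte-derived with CD11c-negative cells (0) gave 1 by DESeq2, 1 with compared libraries only, 2 without obese libraries numbered 1 and 5 without a filter. That of monocyte-derived with MHCII-low cells (0) gave 1 by DESeq2, 1 by limma, 2 without obese libraries numbered 1 and 4 without a filter. Lean CD11c-negative against MHCII-low (0) gave 2 by DESeq2, 2 with compared libraries only, 1 by limma and 3 without a filter, and lean monocyte-derived against MHCII-low (3) gave 5 without a filter.

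Between obese CD11c-negative and MHCII-low cells (1) DESeq2 and limma gave 2, no filter 4, and leaving out libraries numbered 1 gave 0. CD11c-positive against CD11c-negative (3) gave 5 by DESeq2, 6 by limma and 7 without a filter, and against MHCII-low (3) 5 with compared libraries only and 6 without a filter. Monocyte-derived against CD11c-negative (1) gave 2 with compared libraries only or without libraries numbered 1, 3 by limma and 5 without a filter. Against CD11c-positive (3) it gave 5 with compared libraries only and 6 without a filter, and against MHCII-low (5) 3 with compared libraries only.

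With a replicate block on the number in the titles, all 35 calls were kept. Of the larger changes, which alone are given, the count became 2 for the interaction of monocyte-derived with CD11c-negative cells. It became 1 for lean CD11c-negative against MHCII-low, and 2 each for obese CD11c-negative against MHCII-low and monocyte-derived against CD11c-negative. With the replicate block on the number in the descriptions, which exists within each diet, all 23 calls it could test were kept. The larger changes gave counts of 3 and 1 for the interactions of monocyte-derived with CD11c-negative and MHCII-low cells. They gave 2 for each of the same obese pairs. Lean libraries of equal description number correlated above 0.1 in 5 of 7 pairs (0.066 to 0.489). Those of unequal number did so in 2 of 20 pairs (-0.346 to 0.523). Lean libraries were not taken as pairs because not all exceeded 0.1, and whether equal numbers share a sample cannot be told from this. Among lean comparisons the title block called Arg1 in CD11c-negative against MHCII-low cells (-1.09, adjusted p = 0.0335) and the description block Mgl2 in monocyte-derived against MHCII-low cells (0.63, adjusted p = 0.0185).

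Leaving out 1 library at a time, counts ranged from 1 to 5, 2 to 6 and 1 to 3 for the diet comparisons of MHCII-low, CD11c-negative and monocyte-derived cells. The interactions ranged from 0 to 0 (CD11c-negative with MHCII-low), 0 to 2 (monocyte-derived with MHCII-low) and 0 to 1 (with CD11c-negative). The obese comparisons ranged from 0 to 1 (CD11c-negative against MHCII-low), 2 to 3 and 0 to 3 (CD11c-positive against MHCII-low and CD11c-negative), and 3 to 4, 0 to 2 and 3 to 4 (monocyte-derived against MHCII-low, CD11c-negative and CD11c-positive). The lean ones ranged from 0 to 1, 3 to 4 and 4 to 5.

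Sign changes concerned uncalled results. Over all of these there were 54 in fits with 1 library left out, 11 by limma, 9 without obese libraries numbered 1, 7 and 3 with the description and title blocks, 2 each with size factors and without a filter, and 1 each by DESeq2 and with compared libraries only. Those of results that at least 1 fit called are given here. The Nos2 diet difference in monocyte-derived cells (0.03) was -0.00 with DESeq2 size factors, -0.24 by limma and -0.46 with the title block, and from -1.90 to 0.72 with 1 library left out. The others of this kind came without obese monocyte-derived replicate 3. With 1 library left out, Nos2 ranged from -0.25 to 2.37 in the interaction of monocyte-derived with MHCII-low cells. In obese monocyte-derived cells it ranged from -0.91 to 1.92 against CD11c-negative and from -1.61 to 1.01 against CD11c-positive cells, and Retnla from -0.02 to 1.27 against CD11c-positive cells.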
